A study of Mus musculus with 20 samples.

Results

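The genes described here are 10 genes of the Schwann cell lineage that are not components of myelin: Sox10, S100b, Erbb3, Foxd3, Cdh19, Gfra3, Fabp7, Ngfr, Sox2 and L1cam. They were taken by name from a table of 24062 mouse genes, without a cut on their levels but with earlier results of the same data known. All 10 were among the 16589 genes that passed the filter on low counts. The table holds bulk RNA-seq libraries of 20 nerve tumors from C57BL/6J mice: 12 neurofibroma libraries, 2 of paraspinal subgroup 1, 2 of paraspinal subgroup 2 and 4 labelled GEM-PNST.

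The neurofibromas came from Nf1fl/fl; DhhCre mice. Both paraspinal subgroups and the GEM-PNST tumors came from Ink4a/Arf+/-; Nf1fl/fl; DhhCre mice, so every group carried the floxed Nf1 alleles and the Cre, and the heterozygous Ink4a/Arf loss was present in all but the neurofibroma group. DhhCre expresses Cre under the control of Desert hedgehog, a gene active in the Schwann cell lineage, so the Cre is directed to that lineage and not to every cell of a tumor. No drug was given, and the mice were kept to a set timepoint or to a limit on tumor size. The labels give no age, and whether 2 libraries can share an animal is not stated. The deposited column names for neurofibroma libraries 8 and 9 differ only in their last letter. Ignoring case, so do the names for GEM-PNST library 2 and the first library in paraspinal subgroup 1. Either pair may therefore stem from the same mouse. The tests treated all libraries as separate, and no fit took these shared names into account.

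Schwann cells arise from the neural crest through Schwann cell precursors and immature Schwann cells. SOX10 is the transcription factor that this lineage needs at every step, and among its targets is Erbb3, which encodes the receptor for axonal neuregulin. Cells that are not making myelin keep or regain NGFR, L1CAM and SOX2, while S100B, CDH19, FABP7 and GFRA3 mark cells of the lineage at different steps.

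Library totals ran from 9900759 to 17594164 counts in neurofibroma, from 18474071 to 24314222 in paraspinal and from 16282605 to 22218382 in GEM-PNST libraries. Levels are given in CPM, counts divided by the library total after that total was scaled with the trimmed mean of M values (TMM), a factor that aligns the libraries on most genes. In the table Nf1, the floxed gene, lay between 218 and 276 CPM in neurofibroma, between 35.9 and 89.9 in paraspinal and between 22.5 and 30.7 in GEM-PNST libraries. The prefix of the alignment (BAM) names was read as the sequencing run. By it, neurofibroma libraries 1 to 6 and 7 to 12 had separate runs, and all paraspinal and GEM-PNST libraries shared a further run. Wherever neurofibroma is compared, run, genotype and stage therefore cannot be told apart. Since these are whole tumors, fewer cells of a type and less RNA per cell cannot be told apart either.

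In short, the 10 genes were present in all 16 neurofibroma and paraspinal libraries and were at 5.67 CPM or less in GEM-PNST libraries 1 and 4. GEM-PNST library 2 was equally low for 9 of the 10 but had the most Sox2 of all 20 libraries. GEM-PNST library 3 had Sox10 and Foxd3 at the level of the paraspinal tumors. Its S100b and Fabp7 were at 2.86% and 3.21% of the paraspinal mean. Between neurofibroma and paraspinal tumors the 3 transcription factors rose, and between the paraspinal subgroups Erbb3 and Cdh19 showed the widest gaps.

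**Figure D1:**
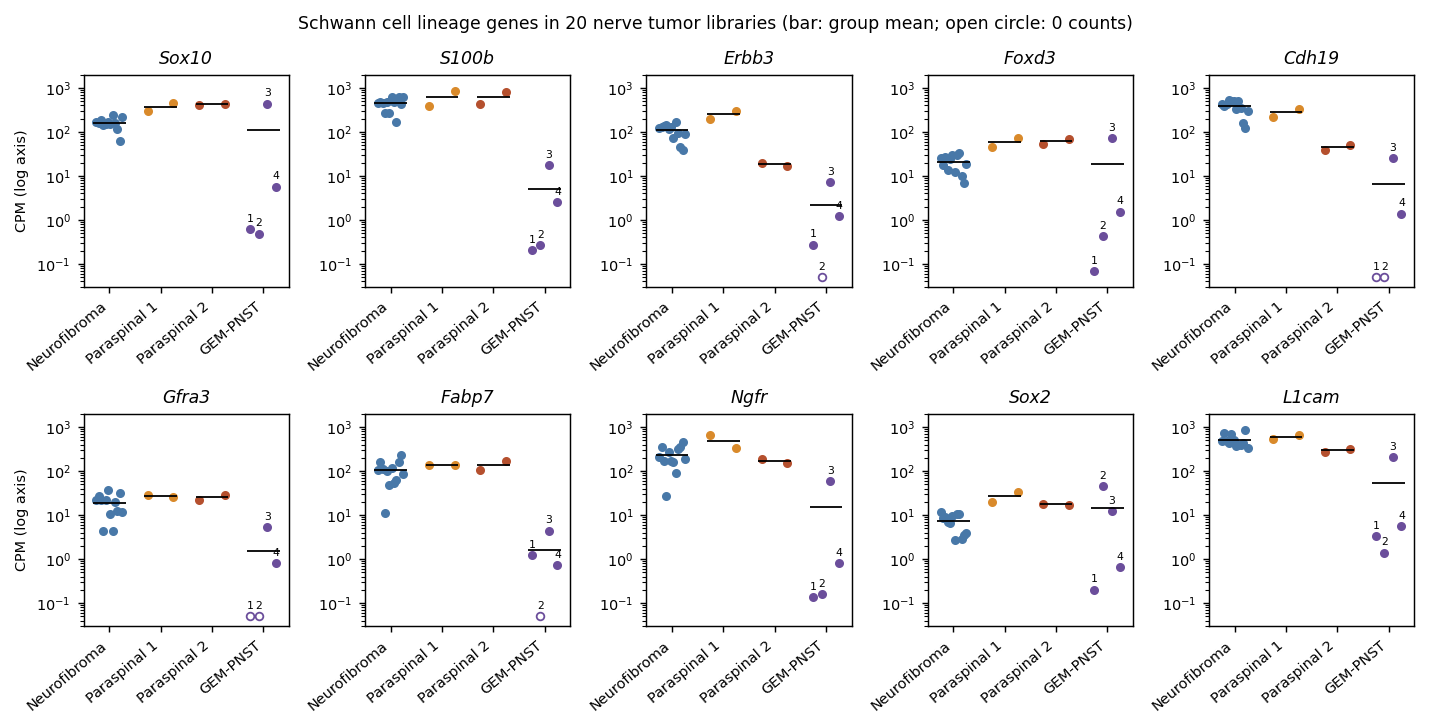
CPM of each gene in each of the 20 libraries on a log axis, by group, with the group mean as a bar and GEM-PNST libraries numbered; open circles at the bottom stand for 0 counts. GEM-PNST library 3 lies far above the other 3 for Sox10 (438 CPM against at most 5.67), and library 2 for Sox2 (45.4 CPM).

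Sox10 encodes the factor on which the identity of the lineage rests (ENSMUSG00000033006.10, chr15:79154908-79165240 on the minus strand of GRCm38, in the GENCODE annotation). In the 12 neurofibroma libraries Sox10 ranged from 61.3 CPM in library 11 through a median of 161 to 237 CPM in library 8. The paraspinal libraries had 302 and 448 CPM in subgroup 1 and 411 and 427 CPM in subgroup 2. All 4 lay above every neurofibroma library, and the subgroups overlapped.

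GEM-PNST libraries 1, 2, 3 and 4 had 0.610, 0.487, 438 and 5.67 CPM of Sox10, from 9, 9, 8811 and 70 counts. Libraries 1 and 2 were thus 495-fold and 620-fold below the lowest paraspinal library, whereas library 3 lay within the paraspinal range. The GEM-PNST mean of 111 ± 218 CPM (SD, n = 4) describes none of the 4 tumors.

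Foxd3 is a forkhead factor of the neural crest and of early glia (ENSMUSG00000067261.4, chr4:99656299-99658622, plus strand). It ran from 6.97 CPM in neurofibroma library 11 through a median of 21.1 to 33.4 CPM in library 9. In paraspinal tumors it was 44.9 and 74.1 CPM in subgroup 1 and 52.0 and 69.2 CPM in subgroup 2. GEM-PNST libraries 1 to 4 had 0.0678, 0.433, 71.4 and 1.54 CPM. As for Sox10, every paraspinal library was above every neurofibroma library, and GEM-PNST library 3 alone among the 4 reached the paraspinal range.

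Sox2, a factor of immature and dedifferentiated Schwann cells that opposes myelination, had another pattern (ENSMUSG00000074637.7, chr3:34650405-34652461, plus strand). It was low in neurofibromas, from 2.67 CPM in library 7 through a median of 7.87 to 11.6 CPM in library 1. The paraspinal values were 20.3 and 32.8 CPM in subgroup 1 and 18.1 and 17.3 CPM in subgroup 2. In GEM-PNST libraries 1 to 4 they were 0.203, 45.4, 12.2 and 0.648 CPM, from 3, 839, 245 and 8 counts. Library 2, in which the other 9 genes had at most 1.41 CPM, stood above all paraspinal libraries at 205% of their mean, and library 3 lay between the neurofibroma and paraspinal ranges. The gene lies inside the longer noncoding transcript Sox2ot on the same strand, with 0 exon bases in common.

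Erbb3 encodes the neuregulin receptor that signals with ERBB2 and on which Schwann cell survival and migration depend (ENSMUSG00000018166.8, chr10:128567523-128589652, minus strand). Neurofibroma libraries ran from 38.3 CPM in library 11 through a median of 121 to 169 CPM in library 8. Paraspinal subgroup 1 had 194 and 300 CPM and subgroup 2 had 19.9 and 16.7 CPM. One subgroup was thus above all 12 neurofibromas and the other below all 12. GEM-PNST libraries 1 to 4 had 0.271, 0, 7.16 and 1.21 CPM, and the 0 in library 2 allows up to 0.162 CPM (3 counts, counting error only).

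Ngfr encodes the low-affinity neurotrophin receptor of immature and injury-activated Schwann cells, which some sensory neurons also express (ENSMUSG00000000120.6, chr11:95568818-95587735, minus strand). Its neurofibroma values spread from 26.7 CPM in library 4 through a median of 197 to 454 CPM in library 11. In paraspinal subgroup 1 it was 650 and 335 CPM and in subgroup 2 it was 185 and 155 CPM. GEM-PNST libraries 1 to 4 had 0.136, 0.162, 58.8 and 0.810 CPM. The subgroups did not overlap, and library 3 again was the highest GEM-PNST library, within the neurofibroma range and below the paraspinal one.

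Gfra3, the artemin receptor subunit (ENSMUSG00000024366.8, chr18:34689898-34720387, minus strand), had 4.25 to 37.9 CPM with a median of 20.9 in neurofibroma and 22.3 to 29.3 CPM in paraspinal libraries. GEM-PNST libraries 1 to 4 had 0, 0, 5.42 and 0.810 CPM. All 4 were below the paraspinal range.

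S100b encodes a calcium-binding protein used as the standard Schwann cell stain (ENSMUSG00000033208.7, chr10:76253853-76261159, plus strand). Neurofibroma libraries ran from 170 CPM in library 9 through a median of 463 to 630 CPM in library 12. Paraspinal subgroup 1 had 390 and 832 CPM and subgroup 2 had 436 and 789 CPM. The values in GEM-PNST libraries 1 to 4 were 0.203, 0.271, 17.5 and 2.51 CPM, all below every other library.

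Fabp7 encodes the fatty acid-binding protein of Schwann cell precursors and of satellite glia in sensory ganglia (ENSMUSG00000019874.11, chr10:57784881-57788450, plus strand). It ran from 10.9 CPM in neurofibroma library 4 through a median of 104 to 231 CPM in library 11. The paraspinal values were 141 and 135 CPM in subgroup 1 and 108 and 168 CPM in subgroup 2. GEM-PNST libraries 1 to 4 had 1.22, 0, 4.43 and 0.729 CPM, again below all the others.

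Cdh19 is a cadherin largely restricted to Schwann cell precursors and Schwann cells (ENSMUSG00000047216.8, chr1:110888326-110977584, minus strand). Neurofibroma values ran from 119 CPM in library 11 through a median of 404 to 534 CPM in library 4. In subgroup 1 they were 222 and 329 CPM and in subgroup 2 they were 38.9 and 49.3 CPM. GEM-PNST libraries 1 to 4 had 0, 0, 25.1 and 1.38 CPM. Subgroup 1 lay within the neurofibroma range and subgroup 2 below it.

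L1cam, an adhesion molecule of non-myelinating Schwann cells and axons (ENSMUSG00000031391.18, chrX:73853778-73896105, minus strand), ran from 343 to 881 CPM with a median of 449 in neurofibroma libraries. It had 537 and 647 CPM in subgroup 1 and 269 and 323 CPM in subgroup 2. The 4 GEM-PNST libraries, in order, had 3.39, 1.41, 209 and 5.58 CPM. Its exons share 100 bases, 1.4% of their length, with Arhgap4 on the same strand, and Foxd3 shares 89 bases with the small RNA gene Gm23366, so a small part of either count could belong to the other gene.

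Per kilobase of merged exon, which allows levels to be compared between genes, S100b led in neurofibroma (301 ± 99.3 CPM per kb, SD, n = 12) and in paraspinal tumors (412 ± 156, SD, n = 4). In neurofibroma Cdh19 (88.0 ± 31.3 CPM per kb), Fabp7 (83.3 ± 47.8), L1cam (69.5 ± 22.8), Ngfr (66.5 ± 35.5) and Sox10 (52.3 ± 14.7) followed, and these neighbours did not differ beyond their spread. Erbb3 (17.9 ± 6.63), Gfra3 (9.39 ± 5.22), Foxd3 (8.89 ± 3.74) and Sox2 (3.50 ± 1.58) closed the order. In paraspinal tumors Sox10 stood second at 130 ± 21.3 CPM per kb and Cdh19 at 37.3 ± 32.9. In GEM-PNST library 3 Sox10 was first at 144 CPM per kb, Foxd3 second at 30.7, and S100b stood at 11.8.

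The comparison of paraspinal tumors with neurofibromas asks which of the genes differ between the stages. Sox10, Foxd3 and Sox2 rose, Cdh19 fell, and the other 6 did not pass the test. Sox10 was 397 ± 65.1 CPM (SD, n = 4) in paraspinal against 159 ± 44.7 CPM (SD, n = 12) in neurofibroma libraries, a log2 fold change of 1.31 (SE 0.226, adjusted p = 8.55e-05, edgeR's quasi-likelihood test with Benjamini-Hochberg adjustment). For Foxd3 the change was 1.54 (SE 0.310, adjusted p = 0.000396) and for Sox2 it was 1.61 (SE 0.343, adjusted p = 0.000637). These were the 3 genes whose groups did not overlap, as did 36.5% of all genes tested.

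Cdh19 fell from 377 ± 134 to 160 ± 141 CPM, a log2 fold change of -1.24 (SE 0.507, adjusted p = 0.0437). This call rested on subgroup 2: with subgroup 1 alone the change was -0.43 (adjusted p = 0.470). It was also lost when either library of subgroup 2 was left out (adjusted p = 0.129 and 0.146) and when any of neurofibroma libraries 1 to 9 was (0.0501 to 0.0643). Of all genes, 30.2% rose and 29.2% fell in this comparison, so 3 and 1 of 10 are shares near or below the background. The median log2 fold change of the 10 genes was 0.48, and that of all genes was -0.01.

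For the 6 genes that did not pass, the 95% intervals of the log2 difference were -0.17 to 1.08 for S100b, -0.88 to 1.47 for Erbb3, -0.41 to 1.40 for Gfra3, -0.57 to 1.38 for Fabp7, -0.51 to 1.56 for Ngfr and -0.78 to 0.37 for L1cam. Against each neurofibroma run alone Sox10, Foxd3 and Sox2 kept their calls. In a fit over all 20 libraries, where the GEM-PNST libraries enter the estimate of the spread, none of the 4 was called (adjusted p = 0.238 for Sox10, 0.128 for Foxd3, 0.0652 for Sox2 and 0.132 for Cdh19).

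**Figure D2:**
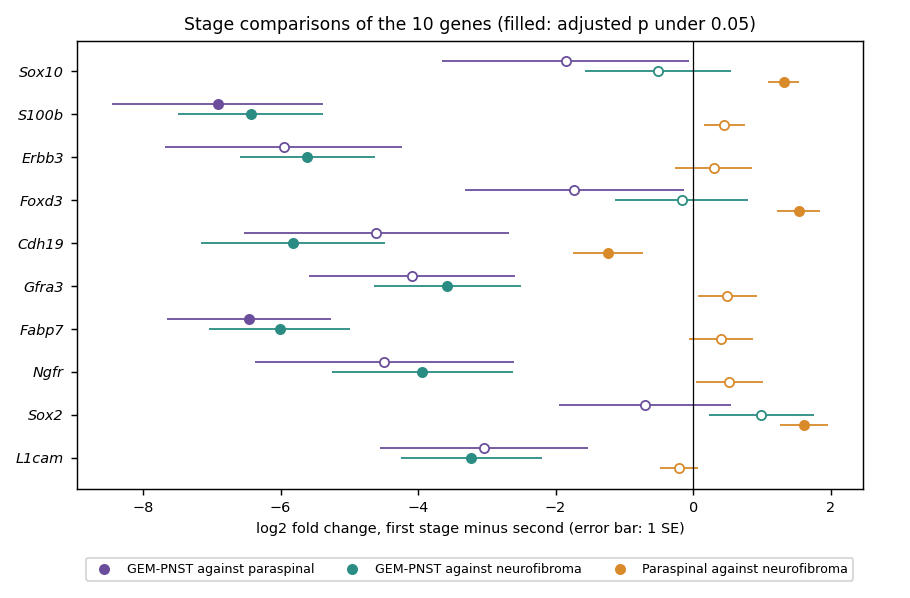
Log2 fold change of each gene with 1 SE in the 3 comparisons of stages, filled where the adjusted p was under 0.05. The paraspinal minus neurofibroma values lie between -1.24 (Cdh19) and 1.61 (Sox2), while S100b, Erbb3 and Fabp7 lie below -5 in both comparisons of GEM-PNST.

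Between GEM-PNST and paraspinal tumors, which share their genotype label and the run read from their names, S100b and Fabp7 fell. S100b went from 612 ± 231 CPM to 5.12 ± 8.33 CPM (SD, n = 4 each), a log2 fold change of -6.91 (SE 1.54, edgeR adjusted p = 0.0309). Fabp7 went from 138 ± 24.9 to 1.59 ± 1.96 CPM, a log2 fold change of -6.46 (SE 1.19, adjusted p = 0.0161). In this comparison 7.69% of all genes fell. Leaving out GEM-PNST library 4 ended both calls (adjusted p = 0.0770 for S100b and 0.0523 for Fabp7), and leaving out any 1 paraspinal library ended that of S100b (0.0505 to 0.0803). Against either paraspinal subgroup alone neither was called (S100b 0.0701 and 0.224, Fabp7 0.0537 and 0.164 for subgroups 1 and 2). The 6 measured macrophage markers summed to 1352 to 3886 CPM in GEM-PNST, 249 to 1375 in paraspinal and 33.6 to 560 in neurofibroma libraries. Of these 6, none passed the test against paraspinal tumors and 5 rose against neurofibroma. The 6 satellite glia markers summed to 296.5 to 593.2 CPM in GEM-PNST and 563.7 to 717.8 in paraspinal libraries. Of them 2 fell and 4 were not called. By group mean, most of the GEM-PNST sum was Glul (212 CPM, against 227 in paraspinal libraries) and Gja1 (158 against 41.0). The means of the others were Kcnj10 22.2 against 136, Gpr37l1 21.9 against 223, Slc1a3 1.85 against 23.0 and Aqp4 0.0498 against 3.49 CPM. The 12 sensory neuron markers summed to 2.24 to 79.9 and 3364 to 5730 CPM, and 10 of them fell. The part of these cell types in the changes of the 10 genes was not tested.

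The other 8 genes did not pass the test. For 5 of them all 4 GEM-PNST libraries still lay below all 4 paraspinal ones: Erbb3 (log2 fold change -5.95, adjusted p = 0.0616), Ngfr (-4.49, 0.139), Cdh19 (-4.61, 0.138), Gfra3 (-4.09, 0.105) and L1cam (-3.04, 0.197). With S100b and Fabp7 that makes 7 of 10 genes without overlap, against 27.6% of all genes tested. The median log2 fold change was -4.29 for the 10 genes and 0.00 for all genes. For Sox10 the difference was -1.85 with a 95% interval of -5.97 to 2.26, for Foxd3 -1.73 (-5.38 to 1.92) and for Sox2 -0.70 (-3.57 to 2.16).

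GEM-PNST library 3 decided most of these values. Without it, 9 of the 10 genes fell, all but Sox2, where that fit called 13.9% of all genes in either direction. Sox10 then changed by -7.49 (SE 1.14, adjusted p = 0.00828), Foxd3 by -6.51 (SE 0.957, 0.00739), Ngfr by -9.88 (SE 1.11, 0.00311) and L1cam by -7.04 (SE 0.746, 0.00271). Erbb3 (0.0300), Cdh19 (0.0274) and Gfra3 (0.0253) passed as well. Sox2 was at -0.61 (SE 1.44, adjusted p = 0.800).

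Against neurofibroma, 7 genes fell in GEM-PNST: S100b (log2 fold change -6.43, edgeR adjusted p = 4.37e-05), Fabp7 (-6.01, 6.17e-05), Cdh19 (-5.82, 0.000996), Erbb3 (-5.61, 8.15e-05), Ngfr (-3.94, 0.0129), Gfra3 (-3.57, 0.00667) and L1cam (-3.23, 0.00959). In this comparison 38.1% of all genes fell. Of the 7, all but Ngfr and Gfra3 also had no overlap between the groups, 5 of 10 against 46.5% of all genes. The median was -3.76 for the 10 genes and -0.14 for all genes.

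Sox10 (-0.51, 95% interval -2.77 to 1.74), Foxd3 (-0.17, -2.20 to 1.87) and Sox2 (0.99, -0.63 to 2.62) did not pass. Without GEM-PNST library 3, Sox10 changed by -6.18 (adjusted p = 3.56e-06) and Foxd3 by -4.97 (3.11e-05). Without GEM-PNST library 2 the Sox2 difference turned from 0.99 to -0.72, and neither value passed. The Ngfr call was lost against neurofibroma run 1 alone (adjusted p = 0.0639) and those of Gfra3 and L1cam against run 2 alone (0.0510 and 0.0569). The comparisons share the GEM-PNST libraries, so their values are not independent of each other.

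The 4 GEM-PNST tumors differed widely among themselves. The 10 genes together had 90 counts in library 1, 890 in library 2 (839 of them Sox2), 17072 in library 3 and 258 in library 4. All 10 lay below both other stages in libraries 1 and 4. In library 3, by contrast, Sox10 and Foxd3 lay within the paraspinal range and above all neurofibromas, at 110% and 119% of the paraspinal mean.

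The other genes in library 3 lay lower against the paraspinal tumors. Sox2 was at 55.1% and L1cam at 47.0% of the paraspinal mean. Gfra3 (20.4%), Ngfr (17.8%) and Cdh19 (15.7%) formed a middle group, and Erbb3 (5.39%), Fabp7 (3.21%) and S100b (2.86%) were lowest. Set against Sox10 of the same library, S100b had a CPM ratio of 0.0400, where the neurofibroma libraries had 1.06 to 7.09 and the paraspinal libraries 1.06 to 1.86. The Erbb3 ratio was 0.0163, against 0.396 to 0.996 and 0.0391 to 0.671. The ratio of Foxd3 to Sox10 was 0.163, inside the ranges of 0.0852 to 0.208 and 0.127 to 0.165. Of the 9 ratios only that of Foxd3 lay inside the paraspinal range, and Foxd3 and Sox2 were the 2 inside the neurofibroma range.

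**Figure D3:**
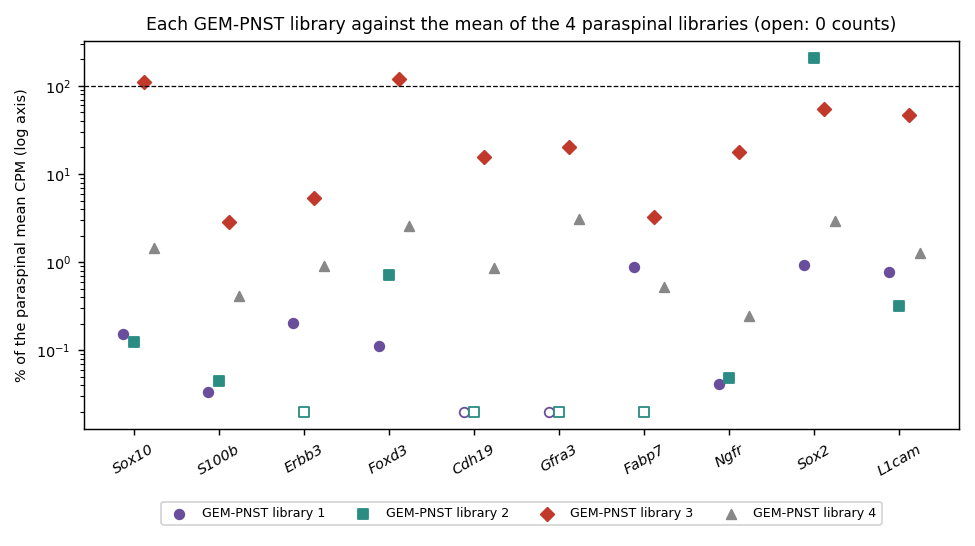
CPM of each gene in each GEM-PNST library as a percentage of the mean of the 4 paraspinal libraries, on a log axis; the dashed line is 100% and open symbols stand for 0 counts. Library 3 runs from 2.86% (S100b) to 119% (Foxd3), and the one value of library 2 near or above the line is Sox2 at 205%.

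**Figure D4:**
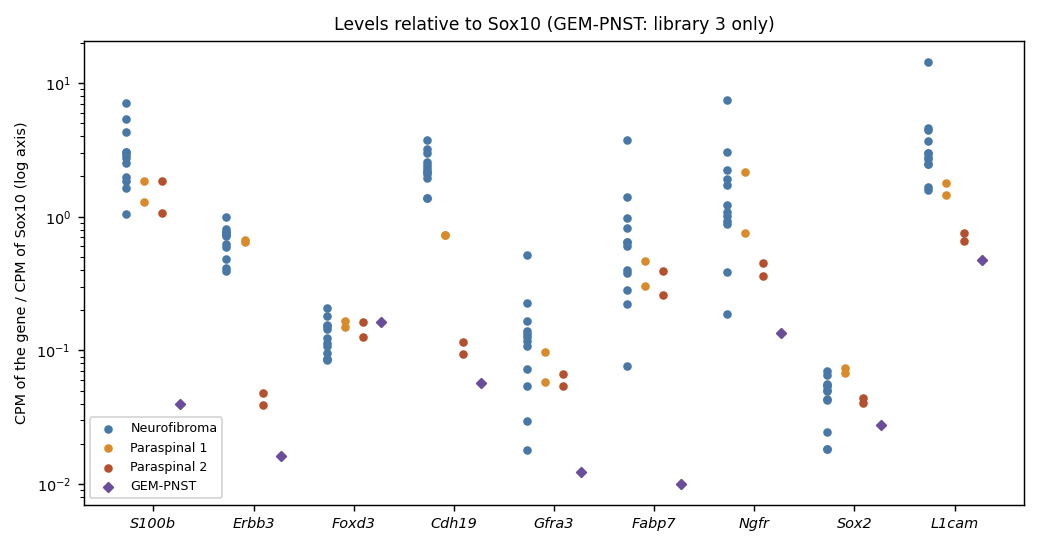
CPM of each gene divided by CPM of Sox10 in the same library, on a log axis. All neurofibroma and paraspinal libraries and GEM-PNST library 3 (diamond) are shown. Libraries were included by a cut on the Sox10 CPM level. The other GEM-PNST libraries, with at most 5.67 CPM of Sox10 (70 counts, library 4), fell below it. The diamond falls inside the paraspinal points for Foxd3 (0.163) and far below them for S100b (0.0400) and Fabp7 (0.0101).

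Markers of other tissues were also high in library 3. Of 14 salivary gland and epithelial markers 8 were highest there among all 20 libraries, and their summed level was 5704 CPM against 290 to 811 in the other GEM-PNST, 25.4 to 103 in neurofibroma and 17.5 to 21.2 in paraspinal libraries. Most of it was Amy1, an amylase gene (4304 CPM), and Dcpp1, a salivary gland secretory gene (1306 CPM and 0 counts in the other 3). The 7 fibroblast markers summed to 15760 CPM in library 3 and to 126, 3100 and 5438 CPM in libraries 1, 2 and 4. The 10 myelin genes summed to 756 CPM in library 3 and 76.0 to 208 in the others, against 7803 to 18670 in paraspinal libraries, and the 12 sensory neuron markers to 79.9 CPM and 2.24 to 41.5, against 3364 to 5730. The 7 melanocyte markers, another Sox10-expressing lineage, summed to 10.6 CPM in library 3. In libraries 1, 2 and 4 they summed to 4.34, 39.1 and 14.8 CPM. Paraspinal libraries had 8.96 to 13.6 CPM of them and neurofibroma libraries 40.2 to 69.1 CPM. By group mean, most of these sums was Tyr and Mitf. Tyr averaged 35.2 CPM in neurofibroma, 0.0103 in paraspinal and 0.0202 in GEM-PNST libraries, and Mitf averaged 17.3, 10.5 and 16.1 CPM. Each other melanocyte marker averaged at most 1.85 CPM in any stage, so the sums do not measure the marker list as a whole. The part of these tissues in the result, the Sox10 level of library 3 included, was not tested.

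The RefSeq windows of 250 bases before the transcription start are described for 6 of the 10 genes (S100b, Fabp7, Foxd3, Sox2, Ngfr and L1cam). A window of Gfra3 is not reported here, and none was available for Sox10, Erbb3 and Cdh19. After the values were seen, sequences were chosen for the 2 genes lowest in GEM-PNST library 3 and 2 transcription factors higher there. All are on the plus strand of GRCm38.p6, written 5′ to 3′, with CG dinucleotides in capitals: S100b at chr10:76253586-76253835, Fabp7 at chr10:57784673-57784922, Foxd3 at chr4:99656049-99656298 and Sox2 at chr3:34649745-34649994.
S100b: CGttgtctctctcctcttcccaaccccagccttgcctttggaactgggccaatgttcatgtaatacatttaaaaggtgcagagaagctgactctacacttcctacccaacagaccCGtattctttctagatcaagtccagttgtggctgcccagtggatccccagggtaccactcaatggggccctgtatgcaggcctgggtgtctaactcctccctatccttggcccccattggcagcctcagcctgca
Fabp7: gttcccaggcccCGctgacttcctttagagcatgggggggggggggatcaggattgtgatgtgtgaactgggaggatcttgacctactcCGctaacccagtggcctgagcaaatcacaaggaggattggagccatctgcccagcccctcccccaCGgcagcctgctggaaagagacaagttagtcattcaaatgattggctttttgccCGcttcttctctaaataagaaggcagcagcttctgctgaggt
Foxd3: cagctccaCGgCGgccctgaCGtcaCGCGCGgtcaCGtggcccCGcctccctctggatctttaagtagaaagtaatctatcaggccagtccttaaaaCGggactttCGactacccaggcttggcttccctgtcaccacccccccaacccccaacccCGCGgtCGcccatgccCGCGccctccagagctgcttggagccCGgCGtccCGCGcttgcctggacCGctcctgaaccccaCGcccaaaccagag
Sox2: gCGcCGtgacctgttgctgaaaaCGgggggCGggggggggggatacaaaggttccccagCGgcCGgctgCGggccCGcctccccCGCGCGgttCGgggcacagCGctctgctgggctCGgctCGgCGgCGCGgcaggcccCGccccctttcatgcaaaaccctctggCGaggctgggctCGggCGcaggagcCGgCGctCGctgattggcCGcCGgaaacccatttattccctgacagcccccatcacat
S100b and Fabp7 have 2 and 4 CG dinucleotides in this window, and Foxd3 and Sox2 have 21 and 27. The median over 32807 mouse promoter windows is 6, and 18.8%, 37.8%, 83.7% and 91.4% of them have fewer than these 4 genes. Ngfr (17.8% of the paraspinal mean in library 3) has 16, and L1cam (47.0%) has 20 and 12 in its 2 windows. These counts describe 6 genes and no test was made. The RefSeq starts used here differ from the GENCODE positions given above for all of these genes but Foxd3. The L1cam windows lie inside the GENCODE span of that gene, and those of Fabp7 and Ngfr reach into theirs. The windows of S100b and Sox2 end short of the GENCODE start. The letters ACAAAG or ACAATG, forms of the core motif of SOX factors, were searched on both strands. They occur in 1 of the 7 windows, that of Sox2, where an ACAAAG on the gene's strand starts 206 bases before the RefSeq start. Of all windows of this length 16.5% hold ACAAAG, 10.7% hold ACAATG and 25.3% hold either.

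The paraspinal subgroups have 2 libraries each, and the labels call them sub-clusters, so they may have been drawn from expression itself. Erbb3 was 247 ± 74.9 CPM in subgroup 1 and 18.3 ± 2.27 CPM in subgroup 2 (SD, n = 2 each), a log2 fold change of -3.77 (SE 1.92, edgeR adjusted p = 0.472). Cdh19 was 276 ± 75.9 and 44.1 ± 7.36 CPM (-2.65, adjusted p = 0.750) and Ngfr 493 ± 223 and 170 ± 21.2 CPM (-1.56, 0.876). L1cam (-1.01, 0.917) and Sox2 (-0.60, 0.956) were also lower in both libraries of subgroup 2. These 5 had no overlap, as did 69.6% of all genes.

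None of the 10 genes was called, and edgeR called 0% of all genes in this fit, in which the subgroups share the spread of the GEM-PNST libraries. Of all genes 2100 had an unadjusted p under 0.05, DESeq2 called 1212 and limma-voom 5453. In a fit of the 4 paraspinal libraries only, chosen after seeing the data, Erbb3 (adjusted p = 0.00890), Cdh19 (0.00931), L1cam (0.0226) and Ngfr (0.0378) were called lower, and that fit called 29.3% of all genes in either direction. Sox10, S100b, Foxd3, Gfra3 and Fabp7 differed by at most 0.15 in size on the log2 scale, with 95% intervals that reach from -6.22 to 6.52 for Sox10 and from -4.31 to 4.29 for S100b. Beside these values, the macrophage markers summed to 696 and 249 CPM in subgroup 1 and to 1375 and 1156 CPM in subgroup 2, and the fibroblast markers to 7428 and 4399 against 11760 and 9168 CPM. Their part in the differences was not tested.

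Among the 12 neurofibromas Sox10 varied least (coefficient of variation 28.1%) and Fabp7, Gfra3 and Ngfr most (57.5%, 55.6% and 53.3%). Library 11 had the lowest Sox10, Erbb3, Foxd3 and Cdh19 and the highest Ngfr, Fabp7 and L1cam of the 12. Its sensory neuron markers summed to 11780 CPM, the highest of the 12. Library 4 had the lowest Ngfr, Gfra3 and Fabp7 and the highest Cdh19, and its sensory neuron markers summed to 25.6 CPM, where the other 11 had 1968 or more. The part of nerve or ganglion tissue in these levels was not tested.

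The 5 genes whose log2 levels ran closest to those of Sox10 over the 20 libraries, out of 10502 candidates, were Gpr37l1 (root mean square difference 0.48), Aatk (0.52), Lrrn2 (0.57), Rasgef1c (0.64) and D630003M21Rik (0.65). Gpr37l1 encodes a glial receptor and Aatk a kinase. In GEM-PNST library 3 they had 83.3, 272, 32.3, 56.1 and 27.0 CPM, and in library 1 at most 2.58 CPM. The genes were chosen over the same libraries, so these levels follow from the choice. For Ngfr the closest were Lrrc75b (0.70), Plekha6 (0.75), Adora1 (0.75), Nfasc (0.91) and Dpysl5 (0.92). Among the 10 genes themselves Foxd3 ran closest to Sox10 (0.75) and Sox2 least close (2.48).

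Of 18 other genes of the lineage outside myelin, 2 fell between paraspinal and GEM-PNST tumors and none rose, a share near the 7.69% of all genes that fell. Adam22, a receptor for LGI proteins, was among them (log2 fold change -3.54, adjusted p = 0.00995), at 29.9 to 97.7 CPM in paraspinal and 2.87 to 8.82 CPM in GEM-PNST libraries. In neurofibroma libraries 4 and 11 Adam22 had 17.4 and 533 CPM, where the sensory neuron markers summed to 25.6 and 11780 CPM. The part of neurons in the Adam22 change was not tested. With 1 library left out in turn between 2 and 13 of the 18 fell, the 13 without GEM-PNST library 3. With DESeq2 8 fell, with limma-voom 11, with all 20 libraries in the fit 10 and against subgroup 2 alone 0. Against neurofibroma 10 of the 18 fell, where 38.1% of all genes did, and 1 rose.

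Of 12 tested genes of the neuregulin and EGF families (ligands, receptors and the receptor inhibitor gene Errfi1), Nrg3 (-6.50, adjusted p = 0.0226) and Tgfa (-5.40, 0.00881) fell in GEM-PNST against paraspinal tumors. The Nrg3 call was lost without either library of subgroup 1 or without GEM-PNST library 4 (up to 0.0703). Of 6 tested genes of the GDNF family, which pairs the GFRA receptors with RET, Ret fell (-7.42, SE 1.03, adjusted p = 0.00593), from 242 ± 122 to 1.45 ± 1.25 CPM. Unlike Gfra3, Ret was as low in GEM-PNST library 3 (2.44 CPM) as in library 4 (2.59 CPM).

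Of 7 tested neurotrophins and their receptors, which signal beside NGFR, 4 fell, among them Ntrk3 (-5.87, adjusted p = 0.0444), Ntrk2 (-5.31, 0.0397) and Sort1 (-2.74, 0.0468). Ntrk2 and Ntrk3 lost it without any 1 paraspinal library or GEM-PNST library 2 or 4, and Sort1 without any of the 8 except GEM-PNST library 3. Of 13 SOX factors and their partners, Sox8, the close relative of Sox10 (-6.97, 0.0276), and Sox11 (-4.22, 0.0112) fell. In GEM-PNST library 3 Sox8 had 2.74 CPM, where Sox10 had 438, against 57.8 to 126 CPM of Sox8 in paraspinal libraries. The Sox8 call was lost without any 1 paraspinal library or GEM-PNST library 4 (up to 0.0713).

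Of 12 genes of the L1 family and adhesion, 5 fell, where 7.69% of all genes did, led by the contactins Cntn1 (-10.33, adjusted p = 0.00524) and Cntn2 (-9.13, 0.00681), with Nrcam (-4.42, 0.0357), an L1 relative, and Ank2 (-4.38, 0.0140), an ankyrin, whose family binds L1 proteins. Against subgroup 1 alone 3 of the 12 fell. In all 6 lists 0 genes fell against subgroup 2 alone, a fit that called 0.368% of all genes. The Nrcam call was lost without any 1 paraspinal library or GEM-PNST library 2 or 4 (up to 0.0982). Ret, Cntn1 and Cntn2 are also genes of sensory neurons. The 12 sensory neuron markers summed to 2.24 to 79.9 CPM in GEM-PNST and 3364 to 5730 CPM in paraspinal libraries, and 10 of the 12 fell. The part of neurons in the change of these genes was not tested. The median log2 fold changes of the 6 lists lay between -3.96 for the L1 family and -0.77 for the GDNF family, beside 0.00 over all genes.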

How the data were processed

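Expression was measured by bulk RNA-seq in 20 tumor libraries. The authors deposited raw counts of reads per gene, made per the submitters' processing notes with TopHat, HISAT2 and featureCounts on mm10. Their versions and roles are not given in the sources used here, nor are annotation and strandedness, so reads of overlapping genes may be shared. Each of the 20 columns was checked and holds only whole, non-negative values; 0 columns of sample values were left unused. The names of 9 deposited columns are plain numbers, and these columns were recorded as another unit for that reason alone. The labels name the RNeasy Plus Micro and Nextera XT kits.

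The test was edgeR's quasi-likelihood F test (edgeR 4.0.16, R 4.3.3), with TMM scaling and robust estimation of the spread. Benjamini-Hochberg adjustment ran over all 16589 genes that passed edgeR's expression filter, with a threshold of 0.05. Between 95.78% and 99.97% of the counts of a library lay in these genes. Each comparison of stages used only its own libraries, and the fit for the subgroups also held the GEM-PNST libraries. The standard error was computed from the log2 fold change and its F value, 95% intervals use the t distribution with the fit's degrees of freedom, and the prior count of log2 CPM was 2. P-values measure the spread between these samples, which may not come from separate animals.

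The 10 genes and all lists were chosen with earlier results of these data known. Named genes were the 10, the 5 nearest to Sox10 and to Ngfr among tested genes whose log2 CPM averaged 3 or more, up to 4 called genes per list with the largest change between GEM-PNST and paraspinal libraries, and up to 3 markers of a cell type that moved with a member. Some genes this rule names are not reported here. Sequences come from RefSeq on GRCm38.p6. Gene positions and exon lengths come from GENCODE on GRCm38, which shares its coordinates with mm10.

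Alternatives were RLE factors, no filter, DESeq2 1.42.0, limma-voom (limma 3.58.1) with sample weights, all 20 libraries in 1 fit, the replicate number as a block, each paraspinal subgroup or neurofibroma run alone, and each library left out in turn. Spread without robust weights, the 4 paraspinal libraries alone and leaving out neurofibroma libraries were chosen after seeing the data.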

Additional observations from a re-analysis of the deposited data

Results flagged for a closer look

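In GEM-PNST library 3, 8 of the 10 genes stood apart from the other 3 GEM-PNST libraries: the gap from library 3 to the next library exceeded Dixon's 95% critical value for 4 samples. Sox10 was at 438 CPM, where the other 3 had 0.487 to 5.67 CPM. Foxd3 was at 71.4 CPM (others 0.0678 to 1.54), L1cam at 209 CPM (1.41 to 5.58) and Ngfr at 58.8 CPM (0.136 to 0.810). Cdh19 was at 25.1 CPM (0 to 1.38), S100b at 17.5 CPM (0.203 to 2.51), Erbb3 at 7.16 CPM (0 to 1.21) and Gfra3 at 5.42 CPM (0 to 0.810). In all, 20 groups of values were examined, and for normally distributed values chance alone flags about 1 in 20. The rule was applied to CPM and not to log values. With ranges this wide that rate may not hold, and the gaps on a log scale were not examined. The 8 come from the same library, so they are not 8 independent signs. Sox2 and Fabp7 did not stand apart in this way.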

How the results depend on the processing

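In GEM-PNST against paraspinal tumors 2 of the 10 genes were called. The number was 5 with DESeq2, 6 with limma-voom, 7 when the fit took in all 20 libraries and 0 with either paraspinal subgroup alone, and it ran from 0 (without GEM-PNST library 4) to 9 (without library 3) when 1 library was left out. Over all genes the count was 1686, then 4650, 2818 and 7060 in those fits, 1328 and 61 with subgroup 1 or 2 alone, and 507 to 2304 with 1 library left out. Against neurofibroma 7 genes were called, 5 to 9 under every alternative, and DESeq2 gave no adjusted p for 2 of the 7 (nor for 3 of the 10 against paraspinal tumors and 8 of the 10 between the subgroups). In paraspinal tumors against neurofibroma 4 were called, 0 with all 20 libraries and 3 to 4 with 1 library left out. Between the subgroups 0 were called, 3 with limma-voom and 4 with the paraspinal libraries only, and over all genes 0, 1212 (DESeq2), 5453 (limma-voom), 1231 (all 20 libraries) and 4859 (paraspinal libraries only). The replicate numbers were treated as names, and whether they pair the samples is not known. Deviations from the group means correlated at -0.259 to 0.168 for same-numbered libraries and at -0.429 to 0.429 for others. These values cannot decide it, because the 2 libraries of a paraspinal subgroup deviate from their mean as mirror images. Of 2 GEM-PNST libraries that share a number with paraspinal libraries, 1 correlated best with a paraspinal library of its own number. With the number as a replicate block 8, 5, 2 and 0 genes were called in the 4 comparisons in the order above, and 840, 7204, 2762 and 0 of all genes. Of the 18 other lineage genes 11 fell with the block in GEM-PNST against paraspinal tumors, and of the 13 SOX factors and partners 5. With DESeq2, limma-voom, all 20 libraries and subgroup 1 alone, 4, 6, 6 and 0 of these 13 fell, 4, 3, 4 and 1 of the 12 neuregulin and EGF genes, 2, 2, 2 and 1 of the 6 GDNF genes, and 3, 4, 4 and 1 of the 7 neurotrophin genes. Differences that changed sign were not called before or after, except as named. Against neurofibroma, GEM-PNST Sox2 was -1.09 with limma-voom, -1.42 with the block and -0.72 to 1.40 with 1 library left out, and Foxd3 was -4.97 to 0.24. Paraspinal Erbb3 was -0.26 with limma-voom, -0.68 with all 20 libraries, -2.60 with subgroup 2 alone (called), -0.06 against run 1 and -0.45 to 0.69 with 1 library left out. Ngfr was -0.47 with subgroup 2 alone and L1cam 0.23 with subgroup 1 alone. Between the subgroups Foxd3 was -0.023 with RLE factors. S100b was 0.006, 0.002, 0.022 and 0.008 with limma-voom, all 20 libraries, the block and the paraspinal libraries only, and Fabp7 was 0.001, 0.068 and 0.004 in the last 3. With 1 library left out S100b was -0.49 to 0.66, Fabp7 -0.37 to 0.27, Gfra3 -0.32 to 0.015, Foxd3 -0.30 to 0.44 and Sox10 -0.11 to 0.48. The cause of these shifts was not tested. Alternatives chosen after seeing the data are named in the methods. A zero count in a GEM-PNST library allows up to 0.149 to 0.243 CPM, and each subgroup has 2 libraries.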
